A study of Mus musculus with 14 samples.

Results

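Basement membrane and mesangial matrix genes were followed in 14 single cells labelled as glomerular mesangial cells. The set is a list of 35 genes, chosen by name and looked up in the deposited table of 35271 genes through their Ensembl identifiers, and all 35 were found. All cells came from 1 wild-type male mouse of 8 weeks, of strain C57BL/6 per the series' design and written C56BL/6 in the sample labels. Per the labels' protocols, glomeruli, the filtering units of the kidney, were collected with magnetic beads and dissociated with enzymes, and single cells were captured and lysed on a Fluidigm C1 instrument, which also made the cDNA. There is 1 group and no treatment, so every value describes these cells of 1 animal, and no test between groups exists. Each cell is called by its title, such as GL_M_30.

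Basement membranes are thin sheets of matrix built on networks of type IV collagen and laminin, which nidogens and the heparan sulfate proteoglycans perlecan and agrin link together. In the glomerulus the filtration barrier carries a basement membrane shared by podocytes and endothelial cells, whereas mesangial cells lie in a matrix of their own between the capillary loops. Type IV collagen of the mesangial matrix is made of the Col4a1 and Col4a2 chains. The Col4a3, Col4a4 and Col4a5 chains form the network of the mature filtration barrier and are made by podocytes.

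Levels are RPKM, reads scaled to the length of the gene in kilobases and to the read total of the cell in M. Comparisons of RPKM between genes are approximate, since the annotation behind the lengths is not given. Coverage along transcripts was not assessed, and annotated exon lengths of members ran from 2937 bases (Sparcl1) to 17709 (Fras1). Below, detected means an RPKM of 1 or more, and high means 10 or more. Read totals recovered from the steps of the values ran from 6.60 M in GL_M_75 to 23.8 M in GL_M_60. For the shortest member in the shallowest cell an RPKM of 1 corresponds to about 19 reads and an RPKM of 10 to about 194. Cells had 1770 to 5277 genes detected, and GL_M_36 and GL_M_47 stood highest with 5277 and 4842. Of 8 mesangial marker genes, 6 to 8 were high in each cell. GL_M_30 had 10 of 13 endothelial list genes high, against 0 to 5 in the other cells, and GL_M_55 had 4 of 11 podocyte list genes high, against 0 to 2 elsewhere. Results that rest on these cells are given with and without them. Pearson's r of log2(RPKM + 1) was 0.24 to 0.38 over the 91 pairs of cells, across 7976 genes whose mean RPKM was 1 or more, so no pair of libraries was nearly identical.

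Few members were high in most cells, though a larger share of them than of all genes in the table. Of the 35 members, 21 (60%) were detected in some cell, where 29.2% of all genes in the table and 41.8% of protein-coding genes were. High values in some cell were seen for 16 members (45.7%), against 22.3% of all genes and 33.9% of protein-coding genes. Sparc, Col4a1, Col4a2 and Tinagl1 were high in 8 or more cells. These 4 members are 11.4% of the list, against 2.34% of all genes and 3.74% of protein-coding genes. A further 12 members were high in 1 to 7 cells. Of these, 4 (11.4%) were high in exactly 1 cell, against 8.08% of all genes and 11.7% of protein-coding genes. Of the rest, 5 reached 1 but not 10, 8 stayed above 0 but below 1, and 6 were listed at 0 in every cell. None of the 35 members was at 1 or more in all 14 cells, as 0.454% of all genes and 0.701% of protein-coding genes were. The share of genes listed at 0 in all cells was 17.1% for the members, 57.1% for all genes and 44.3% for protein-coding genes.

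**Figure D1:**
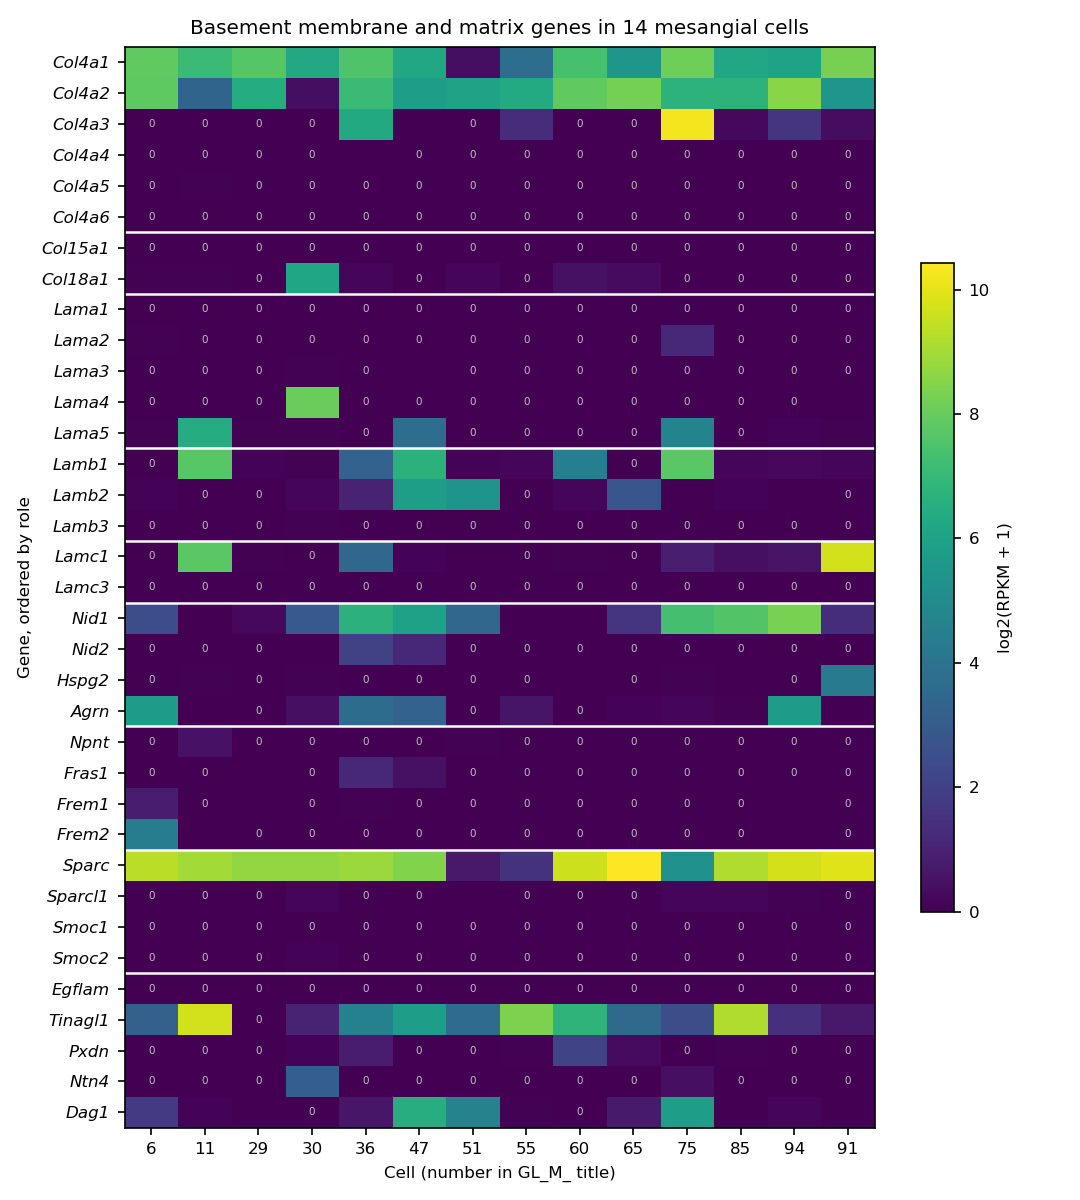
Level of each of the 35 genes (rows, ordered by role and separated by white lines) in each of the 14 cells (columns, number of the GL_M_ title), as log2(RPKM + 1); a printed 0 marks a value listed at 0. The rows of Col4a1, Col4a2 and Sparc are bright in most cells, Tinagl1 and Nid1 in part of them, and 6 rows are at 0 throughout.

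Each cell had between 3 and 9 members high, with a median of 5. The lowest count, 3, was in GL_M_29 and GL_M_55, and the highest, 9, in GL_M_47, followed by 8 in GL_M_36 and in GL_M_75. GL_M_47 and GL_M_36 were also the cells with the most genes detected overall. The 35 members together took 0.0267% of the RPKM total in GL_M_51, 0.211% at the median and 0.373% in GL_M_91. Sparc was the highest member in 10 cells, Tinagl1 in GL_M_11 and GL_M_55, Col4a2 in GL_M_51 and Col4a3 in GL_M_75. Of the 490 values of 35 genes in 14 cells, 300 were listed at 0, 93 lay above 0 but below 1, 22 from 1 to below 10, and 75 at 10 or more. The 93 low values had a median of about 5.34 reads. A zero in this table can be a transcript that was lost on the way to cDNA, so genes with zeros are given by ranges and counts of cells.

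Collagen IV was carried by the mesangial pair of chains. Col4a1 (ENSMUSG00000031502) had an RPKM of 0.317 in GL_M_51, a median of 107 and 316 in GL_M_91, and it was high in 13 of 14 cells. Col4a2 (ENSMUSG00000031503) had 0.319 in GL_M_30, a median of 95.8 and 381 in GL_M_94, and it was high in 12. By median RPKM they ranked 371 and 400 among all genes of the table. Both were above 0 in all cells, and their mean log2(RPKM + 1) was 6.32 ± 2.10 and 6.22 ± 2.14 (SD, 14 cells of 1 mouse). Every cell had at least 1 of the pair high.

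Both chains together were high in 11 of 14 cells, 78.6% with an exact Clopper-Pearson 95% interval of 49.2% to 95.3%, which covers the sampling of cells from this mouse only. With Col4a1 high in 13 cells and Col4a2 in 12, the counts allow 11 or 12 cells with both, so 11 is the lowest number possible. Each of the other 3 cells lacked a high value of 1 chain. GL_M_30 had Col4a1 at 77.7 and Col4a2 at 0.319, GL_M_51 had Col4a1 at 0.317 and Col4a2 at 64.3, and GL_M_11 had 136 and 9.36. In the 11 cells Col4a1 was the higher chain in 6 and Col4a2 in 5, and the 2 chains lay within 2-fold of each other in 5. The ratio of Col4a1 to Col4a2 had a median of 1.04 and ran from 0.148 in GL_M_65 to 7.21 in GL_M_91. Over the 14 cells Pearson's r of their log2(RPKM + 1) was 0.03 and Spearman's rho -0.05. Without GL_M_51 and GL_M_55, the cells farthest from the median of Col4a1, r was 0.04 and rho -0.27.

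**Figure D2:**
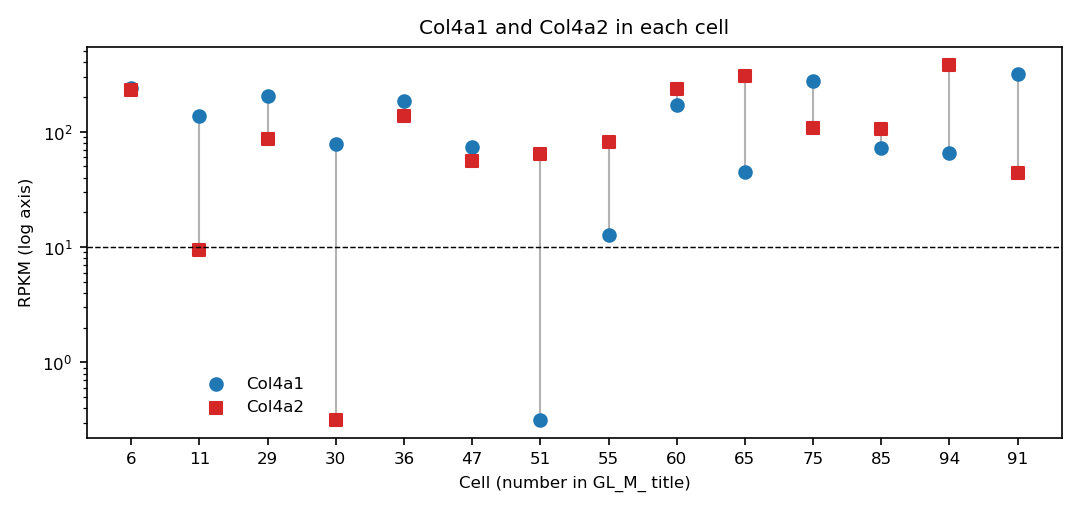
RPKM (log axis) of Col4a1 (blue circles) and Col4a2 (red squares) in each cell, with a grey line joining the 2 chains of a cell and a dashed line at an RPKM of 10. Both chains lie above the line in 11 cells; Col4a2 is at 0.319 in GL_M_30 and Col4a1 at 0.317 in GL_M_51.

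The 2 genes lie head to head on chromosome 8 of GRCm38, Col4a1 from 11198423 to 11312826 on the minus strand and Col4a2 from 11312805 to 11449287 on the plus strand. Their annotated first exons overlap by 22 bases in GENCODE M21, so the annotated starts of both directions lie at the ends of 1 short stretch. That stretch, chr8:11312805-11312826, is printed because it is the point from which both chains of the mesangial trimer begin, together with the 71 bases that separate the GENCODE M21 starts of Col4a4 and Col4a3 on chromosome 1 (chr1:82586850-82586920). Sequences are from RefSeq (GRCm38.p6), plus strand, with capitals marking a match to the GC box GGGCGG or the CCAAT box on either strand.
Col4a1-Col4a2: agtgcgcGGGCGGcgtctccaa
Col4a4-Col4a3: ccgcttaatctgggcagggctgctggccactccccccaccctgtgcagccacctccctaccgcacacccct
The first stretch is 72.7% G and C and holds 1 GC box, and the second is 69% G and C and holds none of these motifs.

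Collagen IV chains of the filtration barrier did not appear as a set. Col4a3 (ENSMUSG00000079465; chromosome 1, 82586921 to 82722059, plus) was at an RPKM of 1203 in GL_M_75, about 79125 reads, and at 79.7 in GL_M_36. It was at 1.97 in GL_M_94 and 1.49 in GL_M_55, below 1 in 3 further cells and listed at 0 in 7. In GL_M_75 it was the highest member, above Col4a1 at 275 and Col4a2 at 107 in the same cell. Col4a4, its head-to-head neighbour, was at 0 in 13 cells and at 0.0262 in GL_M_36, and Col4a5 at 0 in 13 cells and at 0.0292 in GL_M_11. Col4a6, the chain paired with Col4a5 on chromosome X, was at 0 in all 14. By the approximate 95% bound of 3 over the number of cells, it could still be detectable in up to 21.4% of such cells of this mouse. The high Col4a3 values thus came without the chains that complete its trimer. GL_M_75 had 1 of 11 podocyte list genes high, Synpo at 54.5, with Nphs1 at 0.518, and the summed podocyte list was 61.7 there, against 0.427 to 1611 over all cells. GL_M_55, where that sum was 1611, had Col4a3 at only 1.49. The antisense gene C430014B12Rik overlaps 5.65% of the annotated exon length of Col4a3, and it was at 1.26 in GL_M_75 and 0.311 in GL_M_36.

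The multiplexins Col15a1 and Col18a1 are collagens of basement membrane zones, and Col18a1 is the source of endostatin. Col15a1 was listed at 0 in all cells. Col18a1 (ENSMUSG00000001435; chromosome 10, 77052178 to 77166548, minus) was at 71.7 in GL_M_30 and at most 0.378 elsewhere.

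Laminins are trimers of an alpha, a beta and a gamma chain, and here the chains were scattered over cells. Of 10 chains 5 were high in some cell, namely Lama4, Lama5, Lamb1, Lamb2 and Lamc1, and each was high in 1 to 4 cells. Of protein-coding genes, 33.9% were high in some cell, 11.7% in exactly 1 and 3.74% in 8 or more. High values in only a few cells were thus common in the table and not particular to laminins. Among alpha chains Lama5, the chain of the mature filtration barrier, was at 86.3 in GL_M_11, 24.8 in GL_M_75 and 12.3 in GL_M_47, and below 0.1 in the other 11 cells. Lama4, an alpha chain of vessel walls, was at 265 in GL_M_30, about 40640 reads, at 0.0214 in GL_M_91 and at 0 in the other 12. Lama2, known from muscle and from the mesangial matrix, reached 1.25 in GL_M_75 and was at 0 in 12 cells. Lama1, an alpha chain known from embryonic basement membranes among others, was at 0 in all cells, and Lama3, the epithelial chain, was at most at 0.039.

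Among beta chains Lamb1 (ENSMUSG00000002900; chromosome 12, 31265234 to 31329644, plus) was at 217 in GL_M_75, 211 in GL_M_11, 103 in GL_M_47 and 21.9 in GL_M_60. GL_M_36 followed at 8.75, and the other 9 cells were at 0.154 or less. Lamb2, which replaces Lamb1 in the mature filtration barrier, was at 54.4 in GL_M_47 and 41.1 in GL_M_51, then at 5.86 in GL_M_65 and 1.07 in GL_M_36. GL_M_47 was the only cell with both beta chains high. Lamb3, the epithelial beta chain, was at 0 in 13 cells and at 0.0356 in GL_M_30.

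Lamc1 (ENSMUSG00000026478; chromosome 1, 153218922 to 153332786, minus), the gamma chain common to most laminins, was at 838 in GL_M_91, 213 in GL_M_11 and 10.1 in GL_M_36. Its highest value elsewhere was 0.81, in GL_M_75, and Lamc3 was at 0 in all cells. An alpha chain was high in 4 cells, a beta chain in 5 and a gamma chain in 3. All 3 kinds were high together in GL_M_11 alone, where Lama5, Lamb1 and Lamc1 were at 86.3, 211 and 213, so the count is 0 without this cell. GL_M_75 and GL_M_47 had Lama5 with a beta chain but no gamma chain at 10, whereas GL_M_91 had Lamc1 at 838 with every alpha and beta chain below 0.2. In 6 cells no laminin chain was high. Over the 14 cells r between Lamb1 and Lamc1 was 0.23 and rho 0.72, and without GL_M_11 and GL_M_75, the cells farthest from the median of Lamb1, r was -0.06 and rho 0.68. Both values of a cell come from the same library, and most of the ranks lie among values below 1.

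**Figure D3:**
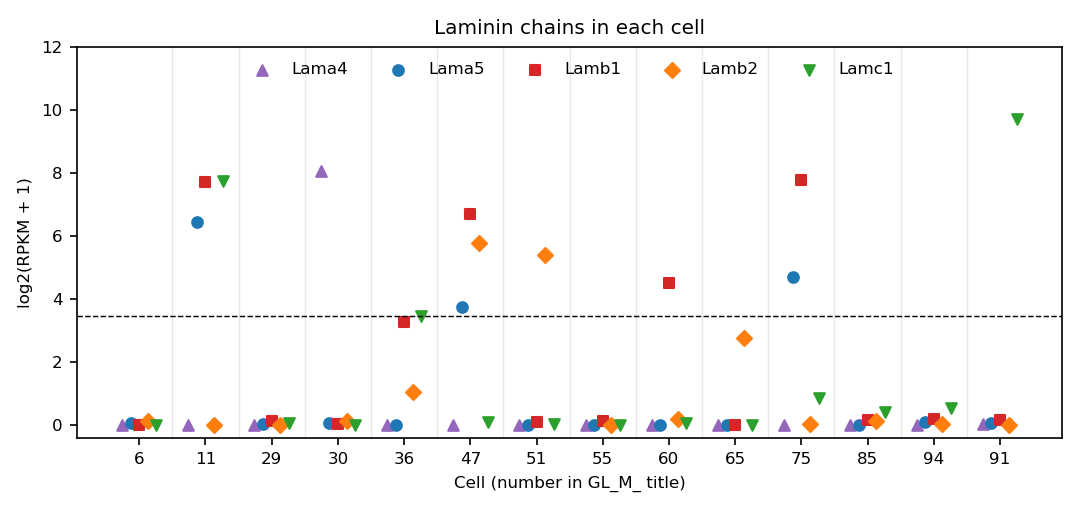
log2(RPKM + 1) of the 5 laminin chains that were high in some cell, by cell, with a dashed line at an RPKM of 10; Lama4 is a purple triangle, Lama5 a blue circle, Lamb1 a red square, Lamb2 an orange diamond and Lamc1 a green inverted triangle. An alpha, a beta and a gamma chain lie above the line together in GL_M_11 only.

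Nidogens bridge the laminin and collagen IV networks, and of the pair Nid1 carried the signal. Nid1 (ENSMUSG00000005397; chromosome 13, 13437551 to 13512269, plus) was above 0 in all cells, with 0.0206 in GL_M_11, a median of 5.64 and 325 in GL_M_94. It was high in 6 cells, GL_M_94, GL_M_85 (194), GL_M_75 (162), GL_M_36 (103), GL_M_47 (61.2) and GL_M_51 (10.4), and the other 8 lay at 6.65 or less. GL_M_11, the cell with a full set of laminin chains, thus had the lowest Nid1. Nid2 reached 3.16 in GL_M_36 and 1.32 in GL_M_47, was at 0.0161 in GL_M_30 and at 0 in 11 cells. The gene Rtraf, on the opposite strand, overlaps 8.45% of the exon length of Nid2 and was at 46.7 in GL_M_36 and at 0 in GL_M_47, so part of the value in GL_M_36 cannot be told apart from Rtraf without strand. Pearson's r between Nid1 and Nid2 was 0.39 and rho 0.30 over 14 cells, and 0.63 and 0.55 without GL_M_85 and GL_M_94, the cells farthest from the median of Nid1. Without GL_M_36 and GL_M_47, the 2 cells in which Nid2 was detected, r was 0.00, which leaves almost no variation in Nid2.

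The sequence before the annotated start of Nid1 is shown for a member whose level ran from 0.0206 to 325 between cells. The 199 bases are chr13:13437352-13437550 on the plus strand (RefSeq, GRCm38.p6), with capitals as above.
Nid1: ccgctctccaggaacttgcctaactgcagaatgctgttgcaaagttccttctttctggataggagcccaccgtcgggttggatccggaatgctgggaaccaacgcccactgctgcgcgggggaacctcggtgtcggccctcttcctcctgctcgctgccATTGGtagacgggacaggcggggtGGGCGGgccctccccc
It holds 1 CCAAT box, read on the minus strand, and 1 GC box. The printed stretches differ in length, so their motif counts cannot be compared. In the promoter windows of equal length described next, Col4a1 had 1 GC box and 1 CCAAT box. Col4a2 had 3 GC boxes and 1 CCAAT box there, and Nid1 had 1 of each.

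RefSeq promoter windows, 250 bases before to 50 after a start, were found for 24 of the 35 members, with 32 windows in all. Some windows overlap, among them those of Egflam, of Dag1, of Lamb3, and of Col4a1 with Col4a2. The same motif can therefore be counted more than once. The GC box GGGCGG was in 20 of these 32 windows (62.5%), against 35.7% of 32851 windows of all genes, counting both strands. The members' windows were richer in G and C, with a median of 63.2% against 52.7%. CCAAT was in 13 (40.6%), against 37.4%. TATAAA, the core of the TATA box, was in 0 of 32, against 13.6%, and CACGTG, an E-box, in 0 of 32, against 7.15%. The window of Sparc held none of the 4 motifs although Sparc had the highest median RPKM of the members. In turn, 1 window of Npnt and both of Egflam held GC boxes although neither gene was detected. A match is a description of these letters and not a binding site.

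Heparan sulfate proteoglycans of the basement membrane were high in few cells. Agrn, agrin, was at 53.2 in GL_M_94, 51.3 in GL_M_6 and 11.9 in GL_M_36, then at 8.65 in GL_M_47 and at 0.515 or less in the other 10. Hspg2, perlecan, was at 18.3 in GL_M_91, where Lamc1 also had its highest value, and at 0.0565 or less in the rest.

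Nephronectin is a matrix ligand of integrin alpha 8, an integrin chain typical of mesangial cells, and the proteins of the Fraser complex (Fras1, Frem1 and Frem2) hold it in basement membranes. Their transcripts were at low RPKM or 0 in nearly all cells, while the receptor chain was high in most. Npnt, nephronectin, was at 0.425 in GL_M_11, 0.0539 in GL_M_51 and 0 in 12 cells. Frem2 was at 20.0 in GL_M_6 and at 0.0106 or less elsewhere, Fras1 reached 1.21 in GL_M_36, and Frem1 reached 0.72 in GL_M_6. Itga8, the receptor chain, had a median RPKM of 513 and was high in 12 cells, from 0.65 in GL_M_51 to 2902 in GL_M_91.

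Sparc, a collagen-binding matricellular protein, had the highest median RPKM of the members. Sparc (ENSMUSG00000018593; chromosome 11, 55394500 to 55423183, minus) had an RPKM of 0.621 in GL_M_51, a median of 486 and 1377 in GL_M_65, and ranked 99 among all genes by median. It was high in 12 cells and at 100 or more in 11, all of which lay between 350 and 1377. The low cells were GL_M_75 at 37.5, GL_M_55 at 1.87 and GL_M_51 at 0.621. Sparc made up 0.407% of the summed RPKM of the members in GL_M_51, 44.8% at the median and 78.8% in GL_M_65. Its relatives were not detected, with Sparcl1 at most at 0.101, Smoc2 at most at 0.0832 and Smoc1 at 0 throughout.

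The 2 cells in which Sparc was below 10 were compared by the transcripts of other cell types. Both had Pdgfra, of the fibroblast list, at its highest, 551 in GL_M_55 and 149 in GL_M_51, and with it the highest sums of that list, while Dcn, Lum and Col1a1 were listed below 1 in every cell. GL_M_55 had 4 of the 11 podocyte list genes high, Wt1 at 613, Cd2ap at 421, Thsd7a at 382 and Synpo at 195, and a summed list RPKM of 1611. GL_M_51 had 1 high, Cd2ap at 15.8, and a sum of 20.7, within the 0.427 to 448 of the other 12 cells. Nphs1 was listed at 0 in both. These 2 cells also had the lowest summed RPKM of the members, 153 and 428, and the lowest summed endothelial list, 8.34 and 33.1. The member sum includes Sparc, by which the cells were picked, so its low rank is partly set by that choice. GL_M_29, with a member sum of 715.5, had Sparc at 425, and GL_M_65, with 1747, had Sparc at 1377. With Sparc left out, GL_M_55 lies above both GL_M_29 and GL_M_65. Of 8 mesangial markers 7 were high in each, with some at the low end and others not. GL_M_51 had the lowest Itga8 of the 14 cells, 0.65, but the highest Agtr1a, 1430. GL_M_55 had the lowest Serpine2, 668, and the lowest Agtr1a, 1.07. Its Gata3, at 7490, lay within the 2518 to 10706 of the 14 cells. The part of other cell types' transcripts in the low Sparc values was not tested.

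In GL_M_30 several matrix transcripts that were below 1 in every other cell lay beside endothelial ones. Lama4 at 265, Col18a1 at 71.7 and Ntn4, a netrin of vascular basement membranes, at 7.62 all peaked there, and outside this cell they did not exceed 0.0214, 0.378 and 0.358. The summed RPKM of the 13 endothelial list genes was 4128 in GL_M_30, against 8.34 to 2075 in the other cells, with Emcn at 1635, Egfl7 at 1199, Kdr at 127 and Cdh5 at 12.7, while Esam was listed at 0 and Pecam1 was at 0.159. Egfl7 and Cdh5 stayed below 1 in the other cells, but Emcn and Kdr did not. Emcn was at 902 in GL_M_91, 733 in GL_M_75 and 287 in GL_M_36, where Lama4 was at 0.0214, 0 and 0. Kdr was at 34.0 in GL_M_75. GL_M_47, with the endothelial sum of 2075, had Lama4 and Col18a1 at 0. In GL_M_30 6 of 8 mesangial markers were high, Gata3 among them at 2518. Without GL_M_30 the number of members detected in some cell was 18 in place of 21. The part of endothelial transcripts in these values was not tested.

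**Figure D4:**
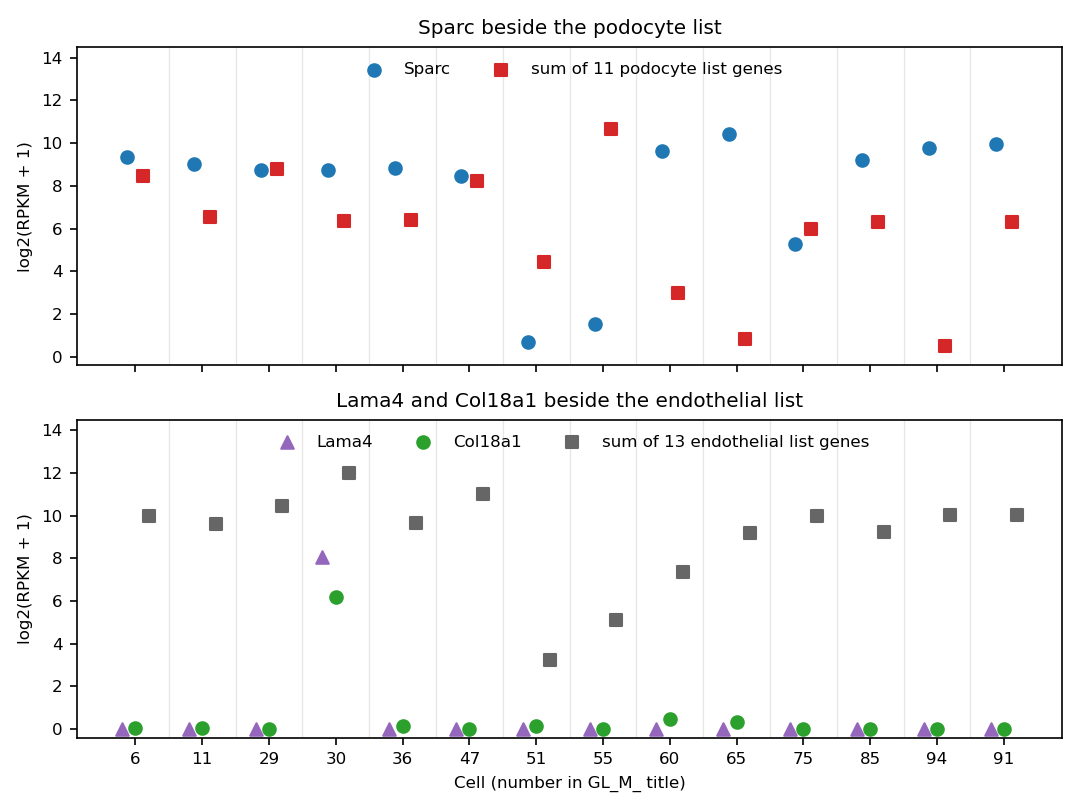
Upper panel, log2(RPKM + 1) of Sparc (blue circles) and of the summed RPKM of 11 podocyte list genes (red squares) in each cell; lower panel, Lama4 (purple triangles), Col18a1 (green circles) and the summed RPKM of 13 endothelial list genes (grey squares) on the same scale. Sparc is lowest in GL_M_51 and GL_M_55, the podocyte sum peaks at 1611 in GL_M_55, and Lama4 and Col18a1 are high in GL_M_30, where the endothelial sum peaks at 4128.

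Tinagl1, a matricellular protein related to the tubulointerstitial nephritis antigen, was high in 8 cells over a wide range. Tinagl1 (ENSMUSG00000028776; chromosome 4, 130164454 to 130175122, minus) was at 831 in GL_M_11, 576 in GL_M_85, 330 in GL_M_55 and 109 in GL_M_60, had a median of 11.4 and was at 0 in GL_M_29. Because 3 of its values lay at 11.1 to 23.1, its place among the members high in most cells depended on the limit. Dag1, dystroglycan, the laminin receptor that anchors basement membranes to the cell, was at 90.6 in GL_M_47, 54.2 in GL_M_75 and 24.0 in GL_M_51, and at 2.44 or less in the other 11. Each of these 3 cells also had a laminin beta chain high, as 5 of the 14 cells did. GL_M_11 and GL_M_60, which also had a beta chain high, had Dag1 at 0.0864 and 0. Pxdn, peroxidasin, which forms the sulfilimine cross-links of collagen IV, reached 3.39 in GL_M_60 and was at 0 in 8 cells. Egflam, pikachurin, a dystroglycan ligand, was at 0 in all 14.

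Of the genes that process collagen, Ppib was the one high in most cells. Of 22 genes for collagen hydroxylation, folding, export and cross-linking, 16 were detected in some cell, 14 were high in some cell and 1 in 8 or more cells. For these and the next lists the shares over protein-coding genes are 41.8% detected in some cell, 33.9% high in some cell and 3.74% high in 8 or more. That gene, Ppib, encodes cyclophilin B, a folding enzyme of the endoplasmic reticulum, and had a median RPKM of 117, with 11 cells high and a value of 0 in GL_M_55. The gene Snx22, on the opposite strand, overlaps 25.0% of the exon length of Ppib. Part of the Ppib values may therefore not be told apart from Snx22 without strand. Undetected genes of this list numbered 6, among them P4ha3, Colgalt2, P3h1 and Lox.

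Receptors of the basement membrane had the most genes high in 8 or more cells among these 4 lists. Of 21 receptor genes 16 were detected in some cell, 15 were high in some cell and 4 in 8 or more. Itgb1, the beta chain shared by the laminin and collagen integrins, was high in all 14, from 89.9 in GL_M_6 to 3145 in GL_M_60 with a median of 733. Sdc4, the heparan sulfate proteoglycan syndecan 4, was high in 13 with a median of 432, Itga8 in 12, and Itga1, the collagen IV binding alpha chain, in 8 with a median of 22.1. Itga2, Itga6, Itgb3 and Itgb4 were among 5 undetected receptor genes.

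The sugar chain by which dystroglycan binds laminin is built by a set of glycosyltransferases. Of 10 such genes 8 were high in some cell and 0 in 8 or more, and Pomt2 and Pomk were undetected. Among those high in some cell was B4gat1, at 260 in GL_M_30. The gene AC124502.3, on the same strand, overlaps 85.3% of its exon length. Of 15 further basement membrane genes 3 were detected in some cell, and the highest was Col8a1, with 399 in GL_M_11 and 4 cells high. The undetected 12 included Tinag, Hmcn1, Hmcn2 and Vwa1.

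Variation between cells was set beside that of other genes by the SD of log2(RPKM + 1). For the 16 members whose mean RPKM was 1 or more its median was 2.18, against 2.30 for all 7976 such genes. For the 4 members with a median RPKM of at least 10 it was 2.61, against 3.21 for 988 genes. Col4a1, at an SD of 2.10, and Col4a2, at 2.14, varied less than Sparc at 3.09, Nid1 at 3.13 and Tinagl1 at 3.21. The members are long genes with little sequence in common with others. No member shared more than 7.5% of its 50-base words with transcripts of other genes, and that highest share was at Nid2.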

How the data were processed

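The deposited values are RPKM per Ensembl gene, made by the authors, with 1 column per cell per the file headers. The submitters' processing notes name TopHat2 2.0.12, HTSeq 0.6.1 and mm10. Not given in the sources used here are the annotation release, the read length, strand use, the treatment of reads with several positions and filters on cells. Of 35271 genes, 34488 matched a symbol in the GENCODE M21 table, which also gave coordinates (GRCm38, the assembly mm10 denotes), exon lengths and overlaps.

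RPKM carry no totals, so these were recovered by finding the total at which values of genes with 1 transcript become whole reads. At values below 50 reads, 84.8% to 89.7% came within 0.02 of a whole read. Read numbers per gene use GENCODE M21 lengths and are approximate. A count of 3 reads on 1 kb equals an RPKM of 0.126 to 0.455. No molecular identifiers are mentioned in the labels, so read floors cover counting error only. The interval on a number of cells covers only the sampling of cells from this mouse. The recovery was tested on simulated data.

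Each sample is 1 cell of 1 animal, so no test was run. Levels on a log scale are log2(RPKM + 1), and a pseudocount of 1 compresses low values. The members, gene lists and limits were chosen with earlier results of these data known. All 35 members are named. A few genes of the other lists are not reported here. Of other lists, genes high in 8 or more cells and up to 4 undetected genes in list order are named, with marker genes at cells a result singles out. Chosen after their values were seen were Col8a1, B4gat1 and marker genes below 10. Alternatives were other RPKM limits, rescaling, another pseudocount and leaving out cells. The work used Python 3.11.15, pandas 2.3.3, numpy 2.4.6, scipy 1.17.1 and matplotlib 3.10.9.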

Additional observations from a re-analysis of the deposited data

How the results depend on the processing

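The number of members detected in some cell was 21, 23 at a limit 5 times lower, 17 at a limit 5 times higher and 22 with the RPKM of every cell rescaled to the same total. Members high in most cells numbered 3 to 5 in place of 4 under the alternatives run (Tinagl1, high in 8 cells, dropped out at the higher limit and when any of these cells was left out: GL_M_11, GL_M_36, GL_M_47, GL_M_51, GL_M_55, GL_M_60, GL_M_65 or GL_M_85), and the cells with both Col4a1 and Col4a2 high 8 to 12 in place of 11. Leaving out each cell in turn gave 18 to 21 members detected, 3 to 4 high in most cells, 10 to 11 cells with both collagen chains, and a member share of the RPKM total of 0.210% to 0.211%. The median number of members high per cell stayed at 5. The cell count with an alpha, beta and gamma laminin chain ranged from 0 to 1, since it rests on GL_M_11. The correlation of Nid1 with Nid2 moved from 0.39 to 0.00 without GL_M_36 and GL_M_47, the cells in which Nid2 was detected. Of the 35 members 22 had a median of 0. Rescaling each cell to the same total, which raises every value above 0, moved all 13 medians above 0 by over 1.5 times, for example that of Sparc from 486 to 857 and that of Col4a1 from 107 to 187. Leaving out GL_M_36 and GL_M_47 moved 5 of the 13 by over 1.5 times, Nid1 from 5.64 to 3.34, Dag1 from 0.119 to 0.058, and also Agrn, Lamb2 and Col4a3, whose medians are below 1. Leaving out GL_M_30 or GL_M_55 moved 2 each, Col4a3 and Col18a1, both near 0. No paired analysis was possible because there is 1 group. For members an RPKM of 1 is at least about 19 reads. Without molecular identifiers, read numbers do not show how many transcripts were captured, so a low value or zero can still be a lost transcript.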
